A study of Mus musculus with 10 samples.

Results

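The interferon-stimulated and cGAS-STING genes of the mouse cochlea were described here across 10 RNA-seq libraries. The members were chosen by name, as the genes of cytosolic nucleic acid sensing and the common targets of type I interferon, and 33 of the 54532 genes in the count files carried 1 of these names. STING is listed in the files under its older symbol Tmem173, and cGAS under Mb21d1. The study followed mtKeima mice, which carry a fluorescent reporter of mitochondria and of their breakdown and are on a mixed genetic background, from 2 to 12 months of age. The NR group (NR 1 to NR 5) drank water with nicotinamide riboside (NR), a precursor of NAD+, at 7 mg/ml (24 mM) for 10 months, and the non-treated group (Veh 1 to Veh 5) drank regular water for the same time. The cochlea of both groups was taken at 12 months, and these libraries hold no younger cochlea. Library totals ran from 17060379 counts (NR 5) to 24419230 counts (Veh 3). Each library is called a mouse below, although the labels do not say whether a library held tissue of 1 mouse, and p-values measure only the spread between these libraries.

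The labels give all mice as female. Xist, the RNA of the inactive X chromosome in female cells, was at 0.0882 to 0.405 CPM (read counts scaled to library size) over the 10 libraries, and the Y-linked gene Ddx3y was at 64.5 to 85.0 CPM in the same libraries. Every library of both groups therefore goes against that label in the same way, whereas the study's methods speak of male mice for this experiment. Hair cell markers summed to 264 to 633 CPM, and markers of the stria vascularis and fibrocytes to 3337 to 6485 CPM, so the labelled tissue was found. Hemoglobin and other red cell markers summed to 4151 to 18026 CPM, and the tissue therefore held blood or marrow cells too. In such whole-tissue RNA, fewer cells of a type and less RNA per cell cannot be told apart.

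Double-stranded DNA in the cytosol, including DNA that leaks from damaged mitochondria, is bound by the enzyme cGAS, whose cyclic dinucleotide product switches on STING. STING recruits the kinase TBK1, which phosphorylates the transcription factor IRF3, and IRF3 turns on type I interferon genes. Secreted interferon binds IFNAR1 and IFNAR2 on the same and other cells, and a complex that contains STAT2 and IRF9 then enters the nucleus and binds the interferon-stimulated response element (ISRE) near the start sites of its target genes. These targets include the IFIT proteins, the Mx and OAS antiviral enzymes, viperin, tetherin, the small ubiquitin-like modifier ISG15 and chemokines such as CXCL10. In aged tissue, low activity of this pathway is often read from the targets, since interferon RNA itself is scarce.

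The response element was looked for in RefSeq promoters (GRCm38.p6, 250 bases before to 50 after the start site), which were found for 23 of the 33 members. Its core was searched on both strands as GAAA, any 2 bases and GAAA again, and 12 of the 23 members held it. Counted by promoter, 12 of the 26 searched for these members held it, whereas 3.44% of all 32851 promoters did. Since the members were chosen as known interferon targets, this count describes the list. For the 6 tested members that hold the core and have the highest levels per length, the stretch around it is printed. These stretches show how the shared element sits near the start sites of genes with different values in the cochlea. Capitals mark the core, which reads TTTC on both sides where it lies on the other strand. The first base printed is 160 bases before the start site in the first 5 sequences and the start site itself in the last.

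Bst2, chr8:71537473-71537632, minus strand: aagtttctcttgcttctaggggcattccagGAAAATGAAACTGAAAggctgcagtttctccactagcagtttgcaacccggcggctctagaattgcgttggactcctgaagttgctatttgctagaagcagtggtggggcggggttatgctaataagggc
Ifit3, chr19:34583369-34583528, plus strand: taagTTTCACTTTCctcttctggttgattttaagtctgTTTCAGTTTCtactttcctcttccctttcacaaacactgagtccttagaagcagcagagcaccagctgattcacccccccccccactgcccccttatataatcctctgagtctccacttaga
Isg15, chr4:156200819-156200978, minus strand: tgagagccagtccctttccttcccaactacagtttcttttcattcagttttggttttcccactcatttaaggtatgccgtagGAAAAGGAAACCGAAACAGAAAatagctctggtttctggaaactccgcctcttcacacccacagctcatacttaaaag
Ifit1, chr19:34640729-34640888, plus strand: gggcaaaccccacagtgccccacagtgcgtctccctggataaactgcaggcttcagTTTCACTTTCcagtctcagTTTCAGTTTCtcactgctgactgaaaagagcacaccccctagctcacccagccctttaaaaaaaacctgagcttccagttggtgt
Rsad2, chr12:26456453-26456612, minus strand: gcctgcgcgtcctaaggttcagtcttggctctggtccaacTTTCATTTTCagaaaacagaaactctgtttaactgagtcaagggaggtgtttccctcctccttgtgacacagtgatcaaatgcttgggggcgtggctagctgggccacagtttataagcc
Ifitm3, chr7:141010715-141010744, minus strand: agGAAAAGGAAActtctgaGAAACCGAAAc

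The core began 78, 72 and 66 bases before the start site of Isg15 in 3 overlapping matches, and 130 and 124 bases before that of Bst2 in 2 overlapping ones. Ifit1 had 2 separate matches, 104 and 85 bases before its start site. Ifit3 had them at 156 and 122 bases and its neighbour Ifit3b at 188 and 154 bases. For Bst2, Ifit3 and Ifit3b, the bases that follow the RefSeq start site were not found in a GENCODE M21 transcript of the gene. The distances for these genes therefore depend on the start site used. In Rsad2 a single match began 120 bases before the start site, and in Ifitm3 both matches began after the RefSeq start site, at base 3 and base 20. The other members with a match were Cxcl10, Ddx58, Ifih1, Oas3 and Stat2. A match says only that these letters are in the window.

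NR treatment was not associated with a detectable shift of these genes. Of the 33 members, 32 had reads and all 32 passed the filter on low counts. None was higher and none lower in NR-treated cochlea at the unadjusted p of 0.05 that the study used to call genes, in edgeR's quasi-likelihood test or in DESeq2. The same edgeR test called 4.83% of all 18329 genes tested as higher and 4.88% as lower, or 9.71% in all, and DESeq2 called 3.5% of 33153 genes as higher and 3.08% as lower. At an adjusted p of 0.05, edgeR called 0 members and 0 of all genes, against 1780 genes at an unadjusted p of 0.05. DESeq2 called 105 genes at an adjusted p of 0.05, or 0.539% of the 19468 that it gave an adjusted p, and 0 of them were members. The smallest unadjusted p of a member was 0.169, for Ifi35, with an adjusted p of 0.653. The fitted log2 fold change (NR minus Veh) was above 0 for 19 members and below 0 for 13, and 52.9% of all tested genes lay below 0. Its median was 0.04 over the members and -0.01 over all tested genes, and it ran from -0.15 for Rsad2 to 1.03 for Cxcl10. No member had every NR mouse above, or every NR mouse below, every non-treated mouse, while 0.769% and 0.878% of all tested genes did.

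The precision differed widely between members. The 95% interval of the log2 fold change lay within 0.5 of 0 for 14 of the 32 members and within 1 of 0 for 27. Changes of 2-fold were therefore outside the interval for most members but not for Ifit3, Mx1, Oasl1, Ifi44 and Cxcl10. The direction of the median also rested on single mice. Without NR 5 it was -0.07, with 24 of 32 members below 0, and without Veh 1 it was -0.03, with 18 below 0. Without Veh 2 it was 0.13, the highest over the 10 fits that each left out 1 mouse.

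**Figure D1:**
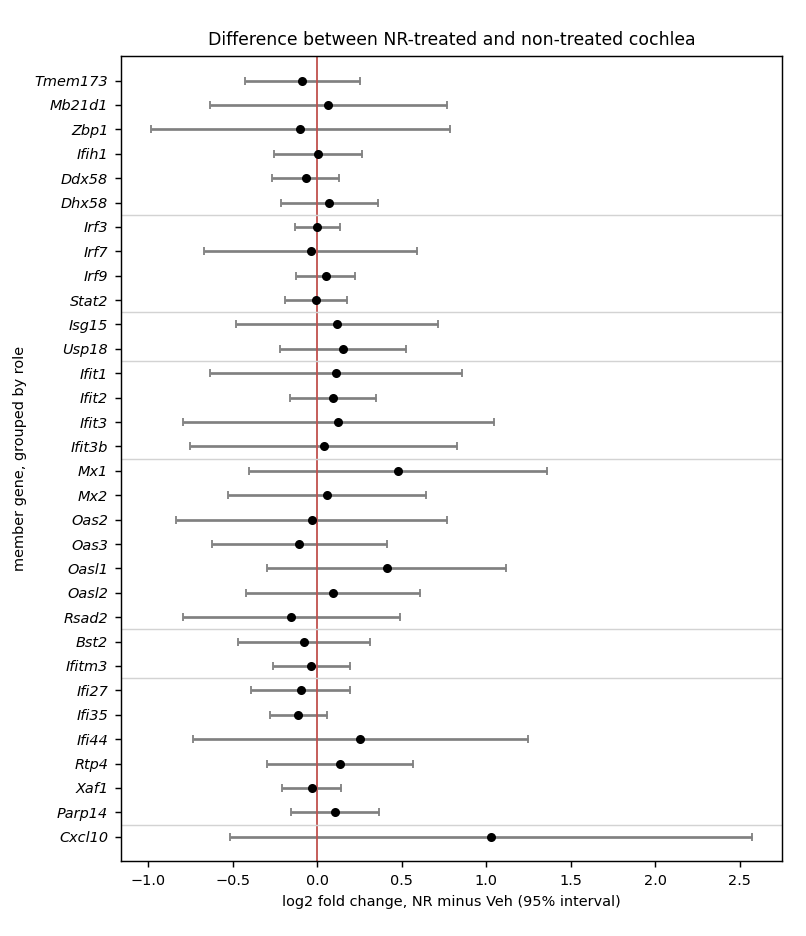
Log2 fold change (NR minus Veh, x axis) of each of the 32 tested members, grouped by role (y axis), with its 95% interval from edgeR. Every interval includes 0, and the interval of Irf3 (-0.13 to 0.13) is much narrower than that of Cxcl10 (-0.52 to 2.57).

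Among the sensors, STING (Tmem173) was the most abundant per length, at 6.09 FPKM (counts scaled to library size and gene length) over all mice. In NR 1 to NR 5 it had 17.8, 11.4, 13.8, 11.1 and 13.9 CPM, and in Veh 1 to Veh 5 it had 11.6, 15.6, 17.4, 15.5 and 12.2 CPM. Both groups spanned nearly the same range, with NR 1 highest and NR 4 lowest. The group levels were 13.6 ± 2.68 and 14.4 ± 2.45 CPM (SD, n = 5 each), a log2 fold change of -0.09 (SE, the standard error, 0.16, interval -0.43 to 0.25, adjusted p = 0.866). Tmem173 lies on chromosome 18, from base 35733678 to 35740554 (mm10).

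cGAS (Mb21d1, chromosome 9, 78430526 to 78443237) was expressed about an order of magnitude lower per length, at 0.685 FPKM. It had 3.47, 0.984, 2.81, 3.1 and 4.11 CPM in the NR mice and 3.08, 2.6, 1.82, 3.17 and 3.11 CPM in the non-treated mice. NR 2, with 22 reads, was the lowest of all mice, and the 4 other NR mice lay in or above the range of the controls. Its log2 fold change was 0.07 (SE 0.32, adjusted p = 0.958). ZBP1, a sensor of left-handed DNA and RNA, was at 5.93 to 6.41 CPM in NR 1 and Veh 2, at 4.17 CPM in Veh 3 and at 2.01 to 2.75 CPM in the other 7 mice, and its log2 fold change was -0.10 (SE 0.40).

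The RNA sensors were steadier. MDA5 (Ifih1) ran from 11.9 to 17.3 CPM, RIG-I (Ddx58) from 27.7 to 39.8 CPM and LGP2 (Dhx58), which tunes both, from 8.44 to 13.9 CPM. Veh 4 was the highest mouse for the first pair and NR 5 for Dhx58. Their log2 fold changes were 0.00, -0.07 and 0.07, with SEs of 0.12, 0.09 and 0.13.

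Trex1, the nuclease that clears cytosolic DNA ahead of cGAS, was listed with 0 reads in all 10 libraries. All 1147 bases of its exons are also exon bases of the neighbouring gene Atrip in the gene annotation used here (GENCODE M21). The read counter was run in its default mode, which leaves out reads that overlap more than 1 gene. Atrip was given 357 to 566 reads per library. The value of Trex1 therefore says nothing about its expression.

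Apart from Irf7, the transcription factors were among the most even members. IRF3, the factor that STING activates by phosphorylation, had 91.5, 75.5, 80.6, 88.2 and 85.6 CPM in the NR mice and 84.8, 81.4, 90.0, 79.0 and 86.0 CPM in the non-treated mice. No mouse stood apart, and the highest was 1.21 times the lowest. The log2 fold change of Irf3 was 0.00 (interval -0.13 to 0.13, adjusted p = 0.998). IRF9 and STAT2, which are parts of the complex that binds the response element, ran from 37.6 to 50.1 CPM and from 42.5 to 55.6 CPM, with log2 fold changes of 0.05 and -0.01 (SE 0.08 each).

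Irf7 behaved otherwise. IRF7 is made in response to interferon and amplifies the response, and it had 20.8, 33.6, 31.2, 19.8 and 54.3 CPM in NR 1 to NR 5 and 19.6, 36.4, 27.8, 43.2 and 36.7 CPM in Veh 1 to Veh 5. NR 5 was highest, while Veh 1, NR 4 and NR 1 shared the lowest level. The groups overlapped almost fully, at 31.9 ± 13.9 and 32.7 ± 9.16 CPM (SD, n = 5 each), with a log2 fold change of -0.04 (SE 0.29, adjusted p = 0.976).

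Isg15 encodes the modifier that is attached to proteins after interferon exposure. It had 11.2, 11.4, 13.4, 9.48 and 28.9 CPM in the NR mice and 14.0, 15.4, 13.9, 11.9 and 12.8 CPM in the non-treated mice. The 5 controls lay close together, and NR 5 alone was far above them, while 3 of the 5 NR mice were below every control. The means were 14.9 ± 7.96 and 13.6 ± 1.32 CPM (SD, n = 5 each) and the log2 fold change was 0.12 (SE 0.27, interval -0.48 to 0.72, adjusted p = 0.897). Without NR 5 it turned to -0.26. USP18, the protease that removes ISG15 and damps the receptor, ran from 8.03 to 16.0 CPM, again with NR 5 highest, and had a log2 fold change of 0.15 (SE 0.17).

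The IFIT genes, whose products bind foreign RNA ends and complexes of translation, varied strongly between mice, apart from Ifit2. Ifit3 (chromosome 19, 34583531 to 34588731) had 31.0, 33.8, 26.5, 22.5 and 84.1 CPM in NR 1 to NR 5 and 14.6, 63.4, 29.5, 32.2 and 41.2 CPM in Veh 1 to Veh 5. NR 5 was highest and Veh 2 second, Veh 1 was lowest, and the highest mouse was 5.74 times the lowest. A log2 fold change of 0.12 was fitted (SE 0.42, interval -0.80 to 1.04, adjusted p = 0.936), with levels of 39.6 ± 25.2 and 36.2 ± 18.0 CPM (SD, n = 5 each). It was -0.34 without NR 5 and 0.44 without Veh 2.

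Ifit1 followed the same order at both ends, with 51.3 CPM in NR 5, 42.1 CPM in Veh 2 and 12.4 CPM in Veh 1. Ifit3b ran from 7.99 CPM in NR 4 to 30.4 CPM in NR 5. The 2 genes Ifit3 and Ifit3b share 521 identical stretches of 100 bases, 31.7% of those of Ifit3 and 27.4% of those of Ifit3b. Reads from these stretches cannot be told apart by sequence and may have been left out of both counts, which would lower both levels. A sum of the counts does not restore such reads. Summed into 1 gene, Ifit3 and Ifit3b had a log2 fold change of 0.10 (SE 0.40). Ifit2, which lies beside them, varied only from 21.9 to 34.2 CPM, with a log2 fold change of 0.09 (SE 0.12).

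The antiviral GTPases and OAS genes repeated the pattern of Ifit3 in part. Mx1 had 10.0 CPM in NR 5, 6.51 CPM in Veh 2 and 1.89 CPM in Veh 1, and its log2 fold change of 0.48 (SE 0.40, adjusted p = 0.706) was the second largest of the list. Mx2 was at 14.7 CPM in NR 5 and at 6.51 to 7.34 CPM in the other 4 NR mice. Oasl2, a 2-5A synthetase-like protein that binds RNA sensors, ran from 20.8 CPM in Veh 1 to 54.7 CPM in NR 5.

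The other OAS genes were low and less alike. Oasl1, which represses the translation of Irf7, ran from 1.07 to 3.76 CPM with a log2 fold change of 0.41 (SE 0.32). Oas2 and Oas3, enzymes that make 2-5A to activate RNase L, had log2 fold changes of -0.03 and -0.11. Oas2 was highest in Veh 2 at 7.23 CPM and lowest in Veh 1 at 1.74 CPM, whereas Oas3 was highest in NR 5 at 7.06 CPM and lowest in NR 2 at 2.68 CPM.

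Rsad2, which encodes the radical SAM enzyme viperin, had other extreme mice than most members. It had 30.9, 42.6, 30.4, 38.7 and 55.6 CPM in NR 1 to NR 5 and 81.6, 38.0, 37.8, 23.7 and 39.2 CPM in Veh 1 to Veh 5. Veh 1, the lowest mouse for 14 of the 32 members, was the highest for Rsad2, and both extremes were in the control group. For Rsad2 the log2 fold change was -0.15 (SE 0.29, interval -0.79 to 0.49, adjusted p = 0.876), from levels of 39.6 ± 10.3 and 44.1 ± 21.9 CPM (SD, n = 5 each). Without Veh 1 it was 0.19.

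The membrane restriction factors were the most abundant role group. IFITM3, which blocks the fusion of viruses with endosomes, was at 181 FPKM and had 136, 106, 122, 103 and 138 CPM in the NR mice and 99.3, 129, 133, 132 and 126 CPM in the non-treated mice. Veh 1 lay below the other controls and near NR 2 and NR 4. The log2 fold change of Ifitm3 was -0.03 (SE 0.10, interval -0.26 to 0.19, adjusted p = 0.927). Tetherin (Bst2), which holds budding viruses at the cell surface, ran from 40.3 CPM in NR 4 to 81.6 CPM in NR 5, at 65.7 FPKM, with a log2 fold change of -0.08 (SE 0.18).

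Ifi27, a small mitochondrial and membrane protein gene, was the second most abundant member at 160 FPKM. It had 177, 260, 283, 217 and 199 CPM in NR 1 to NR 5 and 208, 238, 257, 293 and 221 CPM in Veh 1 to Veh 5. Here NR 1 was lowest and Veh 4 highest, and NR 5 was in the lower part of the range. For Ifi27 the log2 fold change was -0.10 (SE 0.13, interval -0.39 to 0.20, adjusted p = 0.818).

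Of the other interferon-induced genes, Ifi44 was the least abundant member per length (0.54 FPKM) and had 8.86 CPM in NR 5 against 1.40 to 3.77 CPM in the other 9 mice. Ifi35, which had the smallest p, was at 31.5 to 33.8 CPM in the NR mice and at 29.5 to 38.2 CPM in the controls, a log2 fold change of -0.11 (SE 0.08). Among the alternatives run, it passed an unadjusted p of 0.05 only when Veh 1 was left out, at -0.16. Rtp4, a chaperone of receptors, ran from 9.58 to 21.2 CPM and the cell death regulator gene Xaf1 from 39.0 to 50.8 CPM, with log2 fold changes of 0.14 and -0.03. Parp14, whose product transfers ADP-ribose from NAD+ to proteins, ran from 21.5 to 32.2 CPM, with a log2 fold change of 0.11 (SE 0.12, adjusted p = 0.781).

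Cxcl10, which encodes a chemokine that draws T and NK cells, had the largest fold change and the widest spread. It had 13.0, 2.06, 3.63, 0.655 and 3.41 CPM in NR 1 to NR 5 and 0.943, 4.09, 2.27, 3.09 and 0.697 CPM in Veh 1 to Veh 5. NR 1 stood far above the rest, the highest mouse was 19.8 times the lowest, and the other 4 NR mice spanned the range of the controls. Its log2 fold change was 1.03 (SE 0.70, interval -0.52 to 2.57, adjusted p = 0.655). Without NR 1 it was 0.13.

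**Figure D2:**
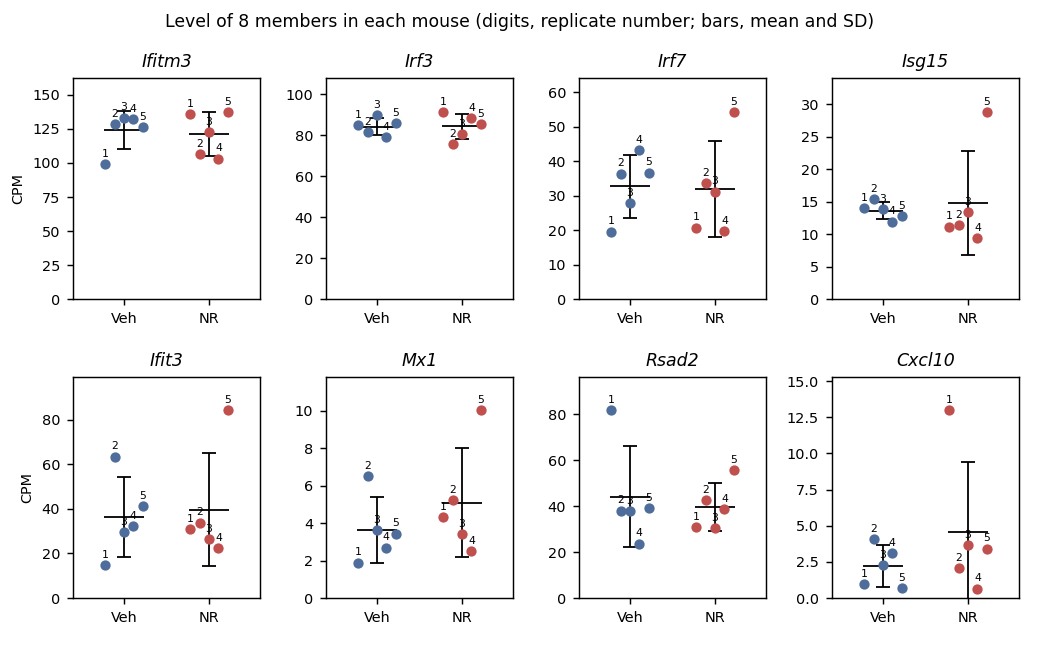
CPM (y axis, from 0) of 8 members in the 5 non-treated (Veh) and 5 NR-treated mice, with 1 point per mouse, its replicate number as a digit, and the mean with SD as bars (the lower bar of Cxcl10 in NR runs below the axis). The 2 groups overlap for every gene, and single mice lead: NR 5 for Isg15, Ifit3, Irf7 and Mx1, Veh 1 for Rsad2 at 81.6 CPM, and NR 1 for Cxcl10 at 13.0 CPM.

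Levels differed far more between members than between groups. Per length, the members ran from Ifi44 at 0.54 FPKM to Ifitm3 at 181 FPKM. Ifitm3, Ifi27 and Bst2 headed the order, followed by Irf3 (24.5 FPKM), Ifit3 (21.7), Ifi35 (19.4) and Isg15 (18.8), whose ranges over the mice overlapped. Ifit1 (10.4 FPKM), Rsad2 (9.65), Xaf1 (9.54), Irf7 (8.56), Stat2 (8.16) and Irf9 (8.13) formed a middle range without clear steps. Ifih1, Cxcl10, Mx1, Oas2, Zbp1, Oasl1, Mb21d1, Oas3 and Ifi44 were under 2 FPKM on average.

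**Figure D3:**
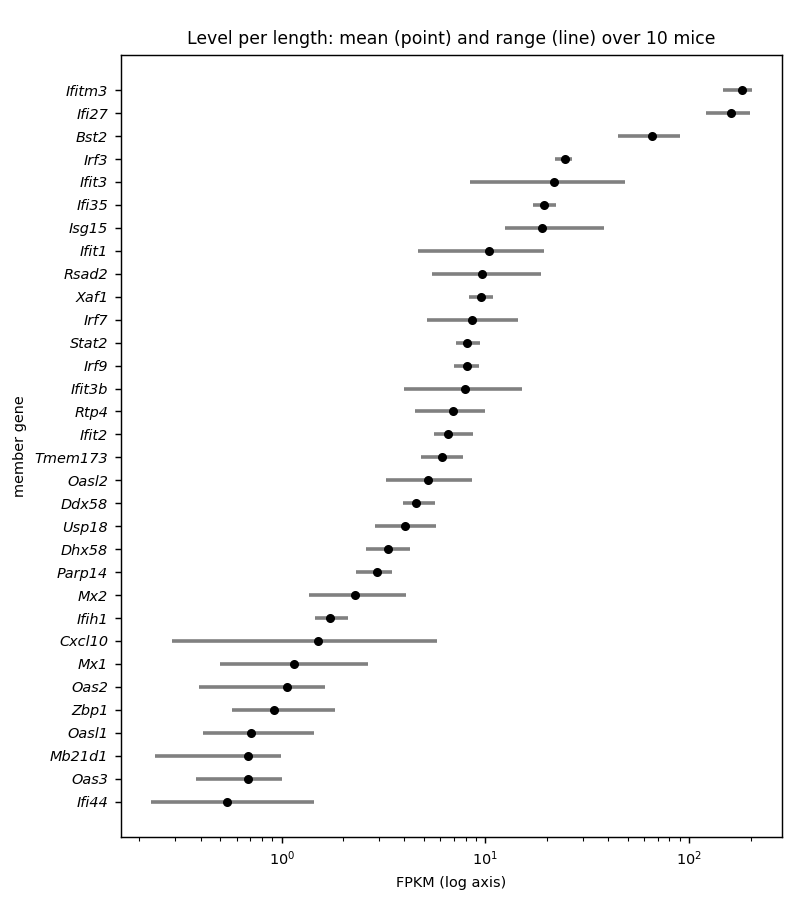
Level per length of the 32 members with reads (y axis), as mean FPKM over the 10 mice (point) and the range from the lowest to the highest mouse (line), on a log axis (x). Ifitm3 (181 FPKM), Ifi27 (160 FPKM) and Bst2 (65.7 FPKM) lie apart at the top, and Cxcl10 has the longest line.

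The spread between mice of the same group was the main feature of these genes. The within-group SD of log2 CPM had a median of 0.37 over the 32 members and 0.19 over all tested genes, at median levels of 4.28 and 4.36 on the log2 CPM scale. The highest mouse exceeded the lowest by over 3-fold for 12 members and by under 1.5-fold for 8. The first kind included Cxcl10, Ifi44, Ifit3, Mx1, Mb21d1, Oas2 and Ifit1, and the second Irf3, Ifi35, Xaf1, Stat2, Irf9, Ifitm3, Ddx58 and Ifih1. Neither kind was counted over all tested genes, so these counts describe the list only.

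The same few mice were at the extremes for many members. NR 5 was the highest of all 10 mice for 20 of the 32 members and the highest NR mouse for 25. It led all 4 IFIT genes, 5 of the 7 genes of the Mx, OAS and viperin group, both genes of the ISG15 system and both restriction factors. Veh 1 was the lowest of all mice for 14 members and NR 4 for 8, and Veh 4 was the highest for 6. How often each mouse was highest or lowest over all tested genes was not counted, so these counts describe the list only.

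On average over the 32 members, log2 CPM was 4.59 in NR 5, 4.34 in Veh 2, 3.76 in NR 4 and 3.70 in Veh 1. Each group thus held both a high and a low mouse, and the 2 groups were at 4.10 ± 0.30 and 4.05 ± 0.23 (SD, n = 5 each). The 4 IFIT genes spread further, with 5.53 in NR 5, 5.21 in Veh 2, 4.09 in NR 4 and 3.84 in Veh 1, and group levels of 4.62 ± 0.56 and 4.55 ± 0.50 (SD, n = 5 each). NR 5 was highest for 7 of 12 tested members with the ISRE core and for 7 of 10 searched members without it.

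**Figure D4:**
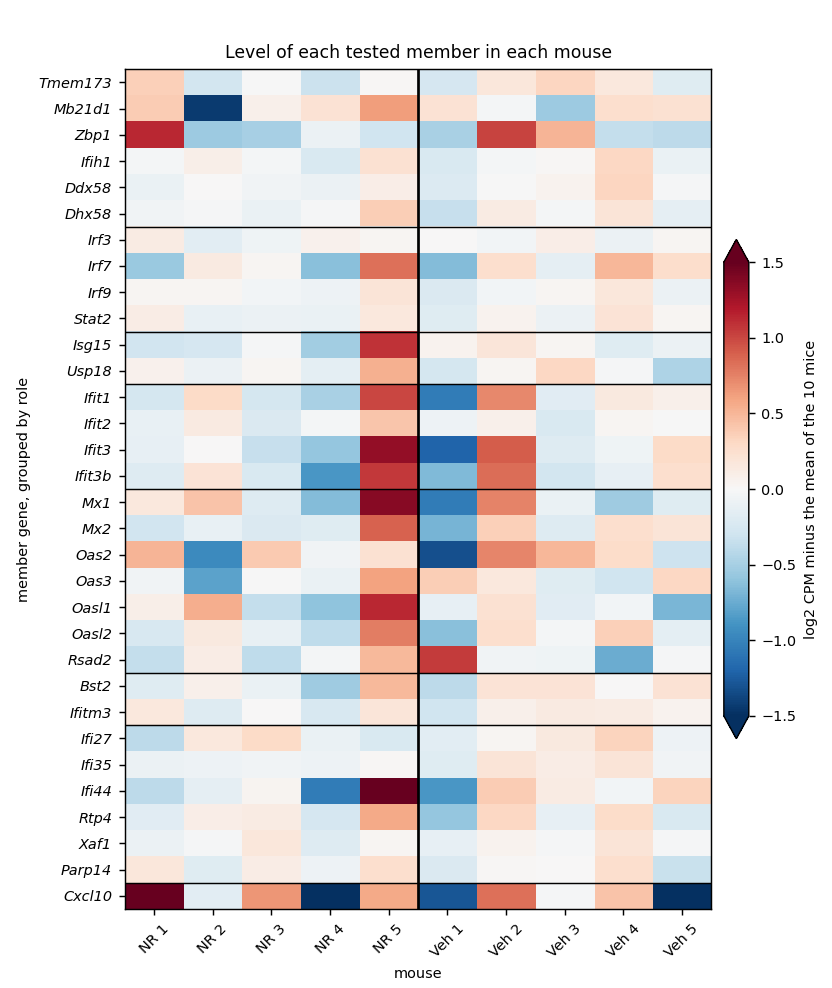
Log2 CPM of each tested member (rows, grouped by role) in each mouse (columns), minus its mean over the 10 mice, with colours cut at 1.5 on either side. The column of NR 5 is mostly red and those of NR 4 and Veh 1 are mostly blue, with Rsad2 as the deepest red of Veh 1.

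Marker sums of other cell types were compared in NR 5 and Veh 2, the high mice of the IFIT genes. These mice had 420 and 480 CPM of summed macrophage markers without Lyz2, within the 290 to 740 CPM of all mice. Lyz2 alone was at 5740.1 CPM in Veh 2 and at 363 to 1490.3 CPM in the other 9 mice, and it was set apart after its values were seen. The 9 plasmacytoid dendritic cell markers, from the cells best known for interferon secretion, summed to 365 CPM in NR 5 and 396 CPM in Veh 2, within the 319 to 408 CPM of all mice. Most of that sum came from Pacsin1 (238 and 271 CPM) and Tcf4 (66.4 and 75.4 CPM), which other cells also express. Their defining marker Siglech, which microglia also express, was at 3.49 to 5.63 CPM in the NR mice and at 5.71 to 7.55 CPM in the controls, without overlap (adjusted p = 0.434). Of the 9 markers, 1 was higher (Cox6a2, log2 fold change 2.99) and 3 were lower in NR-treated cochlea at an unadjusted p of 0.05. The same edgeR test called 4.83% of all tested genes as higher and 4.88% as lower. Cox6a2 was at 16.0 CPM in NR 3 and 11.8 CPM in NR 5, and at most at 1.92 CPM elsewhere. NR 3 and NR 5 also had the highest skeletal muscle sums, and the part of muscle in Cox6a2 was not tested. Skeletal muscle markers summed to 724 CPM in NR 5 and 991 CPM in NR 3, against 17.3 to 101 CPM in the other 8 mice. Mean log2 CPM of the IFIT genes was 5.53 in NR 5 and 4.32 in NR 3, and the part of muscle in them was not tested. Summed B cell markers were at 151 CPM in NR 5 and 176 CPM in Veh 2, the highest of all mice, and the lowest mouse had 114 CPM. Of these sums, Ebf1 gave 85.8 CPM in NR 5 and 74.3 CPM in Veh 2, and it ran from 68.2 to 88.9 CPM over all mice. Endothelial markers were at 427 and 424 CPM, within 351 to 474 CPM. Neutrophil and myeloid markers summed to 4226 and 5868 CPM in these mice, Veh 2 being the highest. That rank rested on Ltf, at 2488 CPM in Veh 2 and at 196 to 1084 CPM in the other 9 mice. No other marker of this list was highest in Veh 2. Neuronal and Schwann cell markers summed to 8633 and 9718 CPM, within 7155 to 9914 CPM. T and NK cell markers summed to 30.7 CPM in NR 5 and 40.4 CPM in Veh 2, next below NR 1 at 43.4 CPM, and erythroid markers to 13125 and 12119 CPM, next below Veh 1 at 18026 CPM. Adipocyte markers summed to 190.2 to 371 CPM in the NR mice and 147 to 185 CPM in the controls, without overlap. The part of these cells in the IFIT values was not tested.

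Rsad2 and the red cell markers had the same mice at both ends. The 9 erythroid markers in the files summed to 18026 CPM in Veh 1, 13125 CPM in NR 5 and 4151 CPM in Veh 4, and Rsad2 was highest, second and lowest in those mice, at 81.6, 55.6 and 23.7 CPM. Isg20, an interferon-induced exonuclease, and Ube2l6, the enzyme that conjugates ISG15, had the same ends, with 77.4 and 161 CPM in Veh 1 and 20.2 and 66.8 CPM in Veh 4. Ifit3, in contrast, had its lowest value in Veh 1. The part of red cells in Rsad2 was not tested.

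Cxcl10 was highest in NR 1, which also led the macrophage markers once Lyz2 was set apart. Without Lyz2 they summed to 740 CPM in NR 1 and to 290 to 480 CPM in the other 9 mice. With Lyz2 the sum was highest in Veh 2, at 6219.7 CPM against 2231 CPM in NR 1. Csf1r, the receptor that macrophages need to survive, had 151 CPM in NR 1 and 55.7 to 91.0 CPM elsewhere. T and NK cell markers also summed highest in NR 1, at 43.4 CPM, and lowest in NR 2, at 15.4 CPM. NR 1 was not a high mouse for the IFIT genes, with 31.0 CPM of Ifit3. The part of these cells in Cxcl10 was not tested.

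**Figure D5:**
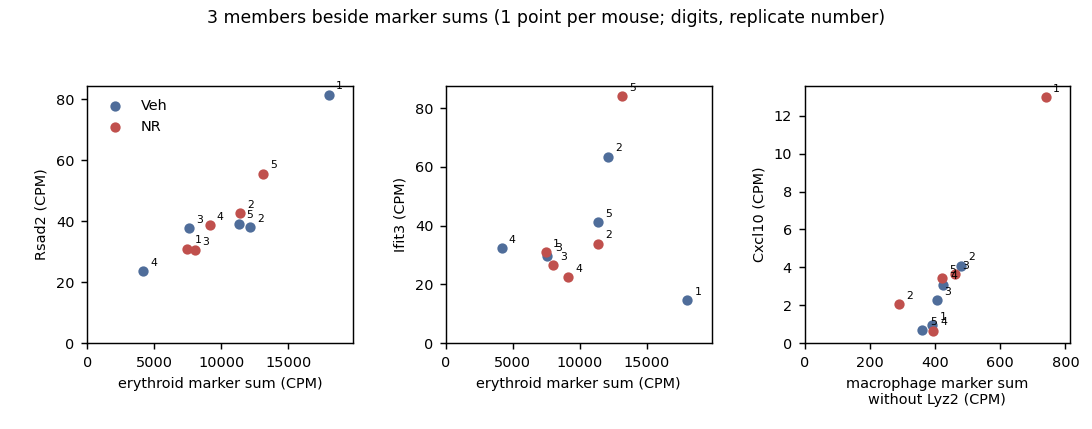
CPM of 3 members (y axes) against summed CPM of marker genes in the same mouse (x axes), 1 point per mouse with its replicate number, Veh in blue and NR in red. Rsad2 has the same highest (Veh 1) and lowest (Veh 4) mouse as the erythroid sum, Ifit3 is lowest in Veh 1, and Cxcl10 is highest in NR 1, which has 740 CPM of macrophage markers without Lyz2.

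The rest of the pathway was examined with 154 other genes, of which 145 had a read and 136 could be tested. Of the interferon genes themselves, 9 of 14 had no read in any library and none passed the filter. Ifnb1, the interferon that IRF3 induces first, had 1 read in all, in NR 1, and the 7 Ifna genes of the list had none. A count of 0 allows up to 3 reads, or 0.121 to 0.174 CPM in these libraries. The 7 listed Ifna genes were therefore given no counts above this limit in any library, and the 1 read of Ifnb1 lies under it. Other Ifna genes were not listed. Sequence shared between Ifna genes was not examined, so their transcripts are not shown to be absent. Of the rest, Ifng had 8 reads, of which 7 were in NR 1, and Ifnz had 20 reads over 9 libraries of both groups.

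Of the 136 tested, 3 were higher in NR-treated cochlea and 4 were lower at an unadjusted p of 0.05, or fewer than the 4.83% and 4.88% of all tested genes, and 0 passed an adjusted p of 0.05. DESeq2 also called 7 of them at an unadjusted p of 0.05 and 0 after adjustment, against 105 over all genes. Those higher were Phf11d (log2 fold change 0.47, adjusted p = 0.476), the T cell quiescence gene Slfn1 (0.71, adjusted p = 0.476) and Cd274 (0.35, adjusted p = 0.483), which encodes the checkpoint ligand PD-L1. All 3 were highest in NR 1, and without NR 1 no pathway gene was called higher. That count was 7 without NR 2 and 1 without Veh 4 or Veh 5. Those lower were Trim25 (-0.20, adjusted p = 0.434), the ubiquitin ligase that activates RIG-I, Mavs (-0.24, adjusted p = 0.488), the mitochondrial adaptor of RIG-I and MDA5, the DNA-degrading enzyme gene Dnase1 (-0.65, adjusted p = 0.476) and the GTPase gene Gbp7 (-0.28, adjusted p = 0.512). Mavs and Dnase1 were highest in Veh 4, at 66.4 and 1207 CPM, and the number of lower calls dropped to 1 without Veh 3, Veh 4 or NR 3 and to 2 without NR 4 or Veh 5. Hair cell markers were also highest in Veh 4 and Veh 3, at 633 and 589 CPM against 264 to 415 CPM in the other 8 mice, and their part in Mavs and Dnase1 was not tested.

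In detail, Trim25 had 35.9, 33.9, 32.6, 37.0 and 39.8 CPM in NR 1 to NR 5 and 40.1, 43.1, 39.2, 43.8 and 40.1 CPM in Veh 1 to Veh 5. Only NR 5 reached into the range of the controls. The receptor genes Ifnar1 and Ifnar2 and the kinase gene Tbk1 were not called, with log2 fold changes of 0.04, -0.04 and -0.01 (SEs 0.05, 0.07 and 0.06). Over all 136 genes the median log2 fold change was -0.00.

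The other pathway genes had a different leading mouse from the members. NR 1 was the highest of all mice for 56 of the 136, while NR 5 was for 10. The share over all tested genes was not counted for any mouse. NR 1 led 12 of the 18 receptor and JAK-STAT genes, 9 of the 17 genes of MHC class I presentation and 5 of the 6 chemokines. Irf1 and Socs1, which respond to interferon gamma, had 58.5 and 6.02 CPM in NR 1 against at most 38.8 and 3.20 CPM in any other mouse, and Cxcl9 had 15.5 CPM against at most 2.51 CPM. NR 2 was the lowest mouse for 46 of the 136. These 2 mice also had the highest and the lowest summed macrophage markers without Lyz2, at 740 and 290 CPM, and their part in these values was not tested.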

How the data were processed

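Cochlear total RNA of 5 NR-treated and 5 non-treated mtKeima mice was sequenced from NEBNext Ultra RNA libraries, whose strandedness is not given in the sources used here. The deposited files hold raw read counts per gene. Per the study's methods and the submitters' processing notes, the authors made them with CASAVA, fastp, STAR 2.6.1d (mm10) and featureCounts 1.5.0 in default mode. The gene annotation release is not given in the sources used here, and 32 of 33 members had the same coordinates in GENCODE M21. From these counts, edgeR 4.0.16 (R 4.3.3) was run over all genes with TMM factors, filterByExpr, the quasi-likelihood test and no covariate, and p-values were adjusted by Benjamini-Hochberg over the 18329 genes tested. CPM used the TMM-scaled library sizes, FPKM the gene lengths in the files, and log2 CPM a prior count of 2. DESeq2 1.42.0, other filters, size factors and dispersions, a replicate block and leaving out each mouse were alternatives. No 2 libraries agreed within sampling noise. Depth (17060379 to 24419230 counts) and the spread between mice both limit the precision. Ifit3, with 295 to 1453 reads per library, had an SE of 0.42, and Ifih1, with 241 to 393 reads, had 0.12. Intervals for counts of 0 cover counting error only. Without strand, reads of overlapping antisense genes cannot be told apart, and 290 of the 1727 exon bases of Ifi35 lie under the antisense gene Gm11626. On the same strand, 296 of the 2131 exon bases of Rtp4 are shared with Gm45338. The default mode leaves out reads that overlap more than 1 gene, which would lower the counts of Ifi35 and Rtp4. Every member with a read was named. Full values were given for the member with the highest level per length in each role group and for Tmem173, Mb21d1, Irf7, Isg15 and Cxcl10, and pathway genes were named at an unadjusted p of 0.05, with Ifnb1, Ifnar1, Ifnar2, Tbk1 and Mavs and 1 other gene that is not reported here. Other genes named by their extreme mouse (among them Isg20, Ube2l6, Irf1, Socs1, Cxcl9, Ifng and Csf1r) were picked after their values were seen. The members, lists and tests were chosen with earlier results of these data known.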

Additional observations from a re-analysis of the deposited data

Results flagged for a closer look

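In 6 of 86 groups of 5 mice (43 genes in 2 groups each), 1 mouse lay apart from the other 4 by Dixon's criterion on the log2 CPM scale, which chance alone gives in about 1 of 20 groups. The levels below are in CPM. In the NR group, Mb21d1 was lowest in NR 2 at 0.984 CPM, with the next mouse at 2.81 CPM. Zbp1 was highest in NR 1 at 6.41 CPM, with the next at 2.75 CPM. Dhx58 and Mx2 were highest in NR 5 at 13.9 and 14.7 CPM, with the next at 10.7 and 7.34 CPM. The receptor gene Ifnar1 was highest in NR 1 at 70.5 CPM, with the next at 64.0 CPM. In the non-treated group, Ifitm3 was lowest in Veh 1 at 99.3 CPM, with the next at 126 CPM. Applied to CPM instead, the criterion set 12 groups apart, of which 5 were the same and 7 were not: Isg15, Usp18, Ifit3 and Ifi44 in NR 5, Cxcl10 in NR 1, and Rsad2 and Gbp7 in Veh 1 were highest in their groups, and Mb21d1 was no longer among them.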

How the results depend on the processing

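The count of 0 members called, higher, lower or after adjustment, held under the other size factors, both other filters, the robust dispersion, DESeq2 and the replicate block, and the cause of the differences below was not tested. Over the fits that left out 1 mouse, 0 to 1 members were called lower (Ifi35 without Veh 1) and 0 higher, the median log2 fold change of the members ran from -0.07 to 0.13, and 0 to 7 pathway genes were called higher and 1 to 5 lower. The replicate numbers did not pair the mice: deviations from the group means correlated at -0.22 to 0.17 over the 5 same-numbered pairs, and no mouse matched its own number best. With the number as a replicate block, 1 pathway gene was higher in place of 3, and Mb21d1 (-0.011), Irf3 (-0.0013), Isg15 (-0.0025), Ifit3b (-0.0094) and Oas2 (0.030) changed sign. With no filter, Stat2 (0.0066) and Tbk1 (0.0059) did. Leaving out 1 mouse changed the sign of 23 members and 2 pathway genes, whose log2 fold changes ran as follows: Tmem173 -0.20 to 0.0018, Mb21d1 -0.077 to 0.30, Zbp1 -0.53 to 0.21, Ifih1 -0.042 to 0.095, Ddx58 -0.12 to 0.015, Dhx58 -0.011 to 0.13, Irf3 -0.023 to 0.045, Irf7 -0.30 to 0.10, Stat2 -0.043 to 0.050, Isg15 -0.26 to 0.25, Ifit1 -0.19 to 0.35, Ifit2 -0.0015 to 0.16, Ifit3 -0.34 to 0.44, Ifit3b -0.31 to 0.32, Mx2 -0.22 to 0.17, Oas2 -0.24 to 0.17, Oas3 -0.29 to 0.048, Oasl2 -0.12 to 0.20, Rsad2 -0.30 to 0.19, Bst2 -0.23 to 0.034, Ifitm3 -0.099 to 0.026, Ifi44 -0.37 to 0.47, Xaf1 -0.072 to 0.017, Ifnar2 -0.091 to 0.0071 and Tbk1 -0.025 to 0.027. Depth limits the low members: Mb21d1, Oasl1, Ifi44, Oas2, Mx1 and Cxcl10 had fewer than 40 reads in at least 1 library.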
